A study of Mus musculus with 25 samples.

Results

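The genes described here are 6 targets of inhibitory signalling in sensory neurons: Cnr1, Faah, Adra2a, Adra2c, Sstr2 and Npy2r. They were taken by symbol, as the 6 of 16220 listed Ensembl identifiers that carry these names, and all 6 passed the filter on low values. They were measured in dorsal root ganglia, which hold the cell bodies of the sensory neurons of the trunk and limbs. The 25 mouse strains belong to the BXD panel, inbred lines derived from crosses of C57BL6/J and DBA2/J. Each line is fixed for a mosaic of the parental genomes. Mice were 8 weeks old per the labels, and the labels give neither sex nor how many animals made up a library. The strain names end in TyJ for 16 strains and in RwwJ for 9, and no treatment or allele other than the strain is labelled.

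Cannabinoid CB1, alpha-2 adrenergic, somatostatin and neuropeptide Y Y2 receptors couple to Gi/o proteins. These lower cyclic AMP, close presynaptic calcium channels and open potassium channels, and so reduce transmitter release from sensory terminals. Cnr1 encodes the CB1 receptor, and Faah encodes fatty acid amide hydrolase, the membrane enzyme that breaks down the endocannabinoid anandamide. Adra2a and Adra2c encode receptors for noradrenaline and are the targets of clonidine-like drugs. Sstr2 encodes a receptor for somatostatin, and Npy2r a receptor for neuropeptide Y and peptide YY that is known from myelinated nociceptors and from vagal afferents.

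Cnr1, Faah and Adra2c carried the co-variation described below, so the 250 bases before their RefSeq start sites are shown, from the build GRCm38.p6, 5′ to 3′ on the strand of the gene. The windows are chr4:33924014-33924263 on the plus strand, chr4:116017925-116018174 on the minus strand and chr5:35278316-35278565 on the plus strand. Capitals mark the GC box, GGGCGG, in either orientation. The table holds 3 start sites for Cnr1, of which the most upstream is shown.
Cnr1: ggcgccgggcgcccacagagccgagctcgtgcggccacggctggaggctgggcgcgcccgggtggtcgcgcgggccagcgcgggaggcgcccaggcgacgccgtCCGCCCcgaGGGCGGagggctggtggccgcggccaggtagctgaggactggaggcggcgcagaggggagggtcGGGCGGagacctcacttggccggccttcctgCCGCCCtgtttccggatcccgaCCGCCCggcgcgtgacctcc
Faah: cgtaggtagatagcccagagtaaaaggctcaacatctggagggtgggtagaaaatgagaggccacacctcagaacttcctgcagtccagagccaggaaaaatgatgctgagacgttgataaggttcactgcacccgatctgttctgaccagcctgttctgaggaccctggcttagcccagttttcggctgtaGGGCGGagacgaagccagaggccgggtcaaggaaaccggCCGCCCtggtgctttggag
Adra2c: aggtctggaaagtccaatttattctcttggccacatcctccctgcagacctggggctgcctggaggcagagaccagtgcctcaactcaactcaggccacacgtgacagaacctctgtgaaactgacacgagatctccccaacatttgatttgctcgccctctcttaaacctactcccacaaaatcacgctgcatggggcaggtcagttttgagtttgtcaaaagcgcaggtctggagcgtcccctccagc
The windows of these genes did not share the GC box: Cnr1 held 5 matches, Faah held 2 and Adra2c held 0. Among 32851 promoter windows of the same length, 32.7% held at least 1 match. Single matches were present before Adra2a and Npy2r, and 2 before Sstr2. The TATA box, searched as TATAAA on both strands, occurred only before Adra2a among the 6 genes (12.4% of all windows). The cyclic AMP response element TGACGTCA occurred only before Sstr2 (1.55% of all windows), and CCAAT only before Adra2c (33.8%). GC content was 79.2% for Cnr1, 67.6% for Adra2a, 63.6% for Sstr2, 56.8% for Npy2r, 55.6% for Faah and 53.6% for Adra2c, against a median of 52.4% over all windows.

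Values are scaled counts, the authors' read counts brought to a common upper quartile and rounded, with an estimated 20020000 to 40150000 reads per library. Every strain had 1 library, so a spread over strains holds genotype, animal, dissection and library together, and the p-values measure differences against that spread only. In bulk tissue, fewer cells of a type and less RNA per cell cannot be told apart. Neuronal markers were high in every library, with Tubb3 from 70436 to 109907 and the sensory neuron gene Avil from 14954 to 28042. The mean log2 score over 12 pan-neuronal genes spanned 1.41-fold over the strains. Scores of neighbouring tissue varied far more: that of 9 spinal cord genes spanned 123-fold, highest in BXD48, and that of 7 skeletal muscle genes 102-fold, highest in BXD60. One measure of the libraries moved with several results below. The length index of a library is the median centred log2 level of the longest 25% of protein-coding genes minus that of the shortest 25%, with the 6 genes left out. It was lowest in BXD40 (-0.44), BXD36 (-0.43) and BXD21 (-0.38) and highest in BXD68 (0.29).

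Per kilobase of exon, the order of the 6 mean levels was Adra2c, Cnr1, Npy2r, Adra2a, Faah and Sstr2. Exon length here joins all exons annotated for a gene, in a later build than the table's, so this order depends on that annotation. The longest was Faah, at 7.83 kb. By scaled count the order differed: Cnr1 (801), Faah (520), Adra2c (447), Adra2a (437), Npy2r (402) and Sstr2 (97.4). Adra2c stood at 130 ± 27.8 scaled counts per kb (SD, n = 25 strains), Cnr1 at 124 ± 26.2 and Npy2r at 119 ± 28.4. These first places did not differ beyond their spread: Adra2c exceeded Cnr1 in 14 of 25 strains, and Cnr1 exceeded Npy2r in 16. Adra2a followed at 90.4 ± 31.6 per kb, below Npy2r in 22 strains. Faah, at 66.4 ± 10.6 per kb, was below Adra2a on this scale in 19 strains, and Sstr2, at 45.4 ± 16.7 per kb, was below Faah in 23.

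Within their receptor families these genes were mostly the leading ones per kilobase. Cnr1 was above Cnr2, the cannabinoid receptor of immune cells (8.75 ± 3.72 scaled counts per kb), in 25 of 25 strains. Among 9 adrenergic receptors Adra2c and Adra2a ranked first and second, with Adra2c the higher in 22 strains. The alpha-2 receptor Adra2b stood at 10.5 ± 4.26 per kb. Npy2r exceeded Npy1r, at 73.7 ± 30.7 per kb, in 21 strains, and Npy4r was at 3.03 ± 1.62. Sstr2 was not the leading somatostatin receptor: Sstr4, at 75.1 ± 30.0 per kb, was above it in 21 strains. Sstr2 and Sstr1, the latter at 38.8 ± 13.6 per kb, did not differ beyond their spread, with Sstr2 higher in 16 strains.

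**Figure D1:**
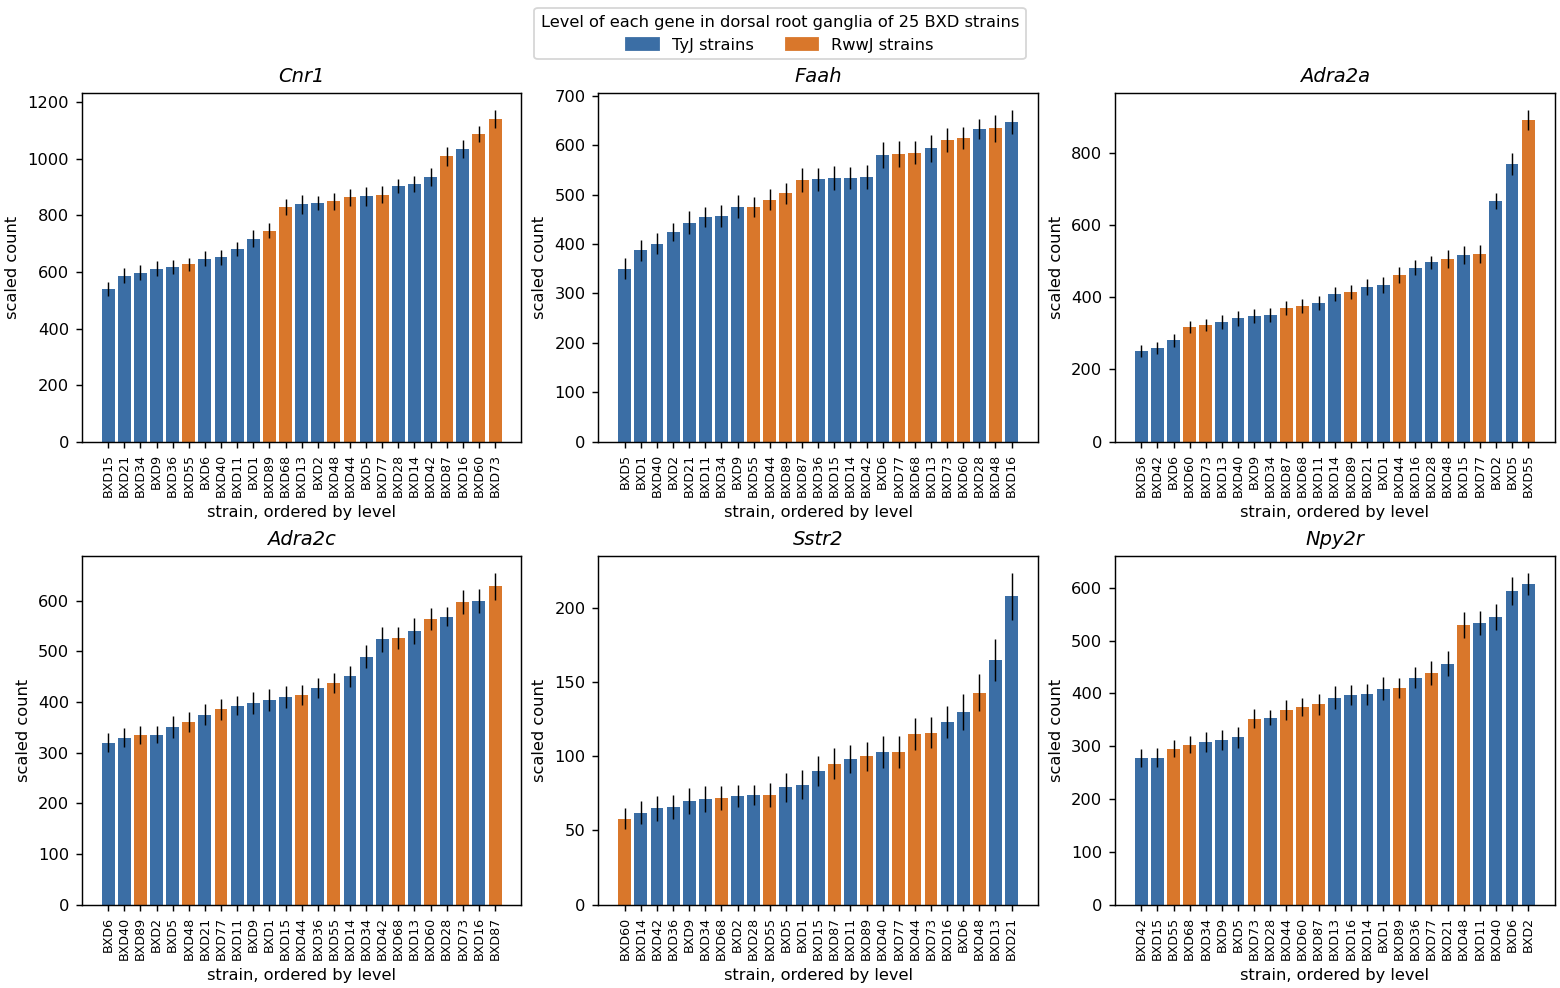
Scaled count (y axis) of each gene in each of 25 strains (x axis, ordered by level within a panel), blue for TyJ and orange for RwwJ strains. Bars are single libraries and error bars are 1 SD of counting error. Cnr1 runs from 541 to 1141 in small steps, whereas BXD2, BXD5 and BXD55 stand above the other strains for Adra2a, and BXD21 has the highest Sstr2, 208.

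Cnr1, the CB1 receptor, had a mean of 801 ± 169 scaled counts (SD, n = 25). Its lowest values were 541 in BXD15, 586 in BXD21 and 598 in BXD34, its median was 839, and its highest values were 1035 in BXD16, 1088 in BXD60 and 1141 in BXD73. The span was 2.11-fold. The widest inner step lay between 746 and 830, with 11 strains below it. The SD of its log2 level was 0.306, higher than that of 82.8% of the 500 genes nearest to it in mean level, and counting error accounted for 3.01% of its variance.

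Faah, the anandamide hydrolase, was the steadiest of the 6 genes, at 520 ± 83.3 scaled counts. It ran from 350 in BXD5, 387 in BXD1 and 401 in BXD40 through a median of 531 to 633 in BXD28, 634 in BXD48 and 647 in BXD16, a 1.85-fold span. Its log2 SD of 0.24 was close to the median of 0.246 over all genes tested, but higher than that of 64.2% of the 500 genes nearest in mean level. Counting error made up 7.37% of its variance.

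Adra2a, the alpha-2A receptor, had a mean of 437 ± 153 scaled counts and the highest values in few strains. It ran from 251 in BXD36, 259 in BXD42 and 281 in BXD6 through a median of 409 to 666 in BXD2, 769 in BXD5 and 891 in BXD55. The other strains lay at or below 520. The span was 3.55-fold between the extreme strains, and 2.97-fold between the second lowest and second highest. Its log2 SD of 0.449 exceeded that of 89.4% of the genes nearest in mean level.

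Adra2c, the alpha-2C receptor, had a mean of 447 ± 95.9 scaled counts. The lowest strains were BXD6 at 320, BXD40 at 330 and BXD89 at 335, the median was 414, and the highest were BXD73 at 597, BXD16 at 600 and BXD87 at 629. It spanned 1.97-fold, less than Adra2a. The strain orders of these receptors differed: BXD5 and BXD2, high for Adra2a, were among the 5 lowest strains for Adra2c.

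Sstr2, the somatostatin receptor, was the lowest of the 6 genes, at 97.4 ± 35.7 scaled counts. It ran from 58 in BXD60, 62 in BXD14 and 65 in BXD42 through a median of 90 to 143 in BXD48, 165 in BXD13 and 208 in BXD21. The span was 3.59-fold, or 2.66-fold between the second lowest and second highest strain, and counting error made up 11.1% of its variance. Sstr2 lies within the bounds of Slc39a11, a zinc transporter gene on the opposite strand with a mean of 505. The kit does not mark strand, so how reads in a shared stretch were assigned is uncertain. The log2 levels of these overlapping genes had r = 0.585 over the strains.

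Npy2r, the Y2 receptor, had a mean of 402 ± 96.1 scaled counts. The lowest strains were BXD42 and BXD15 at 278 each and BXD55 at 295, the median was 392, and the highest were BXD40 at 545, BXD6 at 594 and BXD2 at 607. Its widest inner step lay between 456 and 530, which left 20 strains below and the remaining 5 above.

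The TyJ and RwwJ lines were compared first. Cnr1 ranged from 541 to 1035 in the TyJ strains (median 699) and from 627 to 1141 in the RwwJ strains (median 864). The ranges overlapped, although 8 of 9 RwwJ strains lay above the TyJ median. The limma difference was 0.26 ± 0.11 (SE, RwwJ minus TyJ, log2 scale), with p = 0.0318 and an adjusted p of 0.314. Faah ranged from 350 to 647 in TyJ (median 503) and from 475 to 634 in RwwJ (median 582). Its ranges overlapped too, and its limma difference of 0.18 ± 0.09 had an adjusted p of 0.359.

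The receptors for noradrenaline, somatostatin and neuropeptide Y differed less between the groups. Adra2a had medians of 396 in TyJ and 414 in RwwJ, and a log2 difference of 0.13 ± 0.18 (limma adjusted p = 0.72). Without BXD55 the Adra2a difference was 0.0083. Adra2c had medians of 407 and 437 and a difference of 0.12 ± 0.12 (limma adjusted p = 0.63). Sstr2 had medians of 80 and 100 and a difference of 0.044 ± 0.19 (limma adjusted p = 0.92), which turned to -0.030 without BXD48. Npy2r had medians of 397.5 and 374 and a difference of -0.083 ± 0.13 (limma adjusted p = 0.776). The groups overlapped for all 6 genes and 0 of the 6 passed the limma test at an adjusted p of 0.05, beside 0.0% of the 16152 genes tested. At an unadjusted p under 0.05, limma counted 2440 genes (15.1%), and Cnr1 was the only 1 of the 6 among them. With the length index as a covariate the Cnr1 difference was 0.075, that of Faah 0.067 and that of Adra2c -0.029.

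Co-variation over the 25 strains was examined in 15 pairs. Adra2c rose with Cnr1 over the strains: BXD16, BXD60, BXD73 and BXD87 were the 4 highest strains for Cnr1 and were among the 5 highest for Adra2c. Pearson's r was 0.575 (permutation p = 0.0034) and Spearman's rho 0.513 (permutation p = 0.01). The relation passed limma's regression in both directions, with adjusted p of 0.0123 and 0.0167 over all genes. It had r = 0.5 within TyJ and 0.657 within RwwJ, and 0.581 without BXD21 and BXD15, the strains farthest from the Cnr1 median.

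Adra2c rose with Faah as well. Pearson's r was 0.557 (permutation p = 0.0043), rho was 0.539 (permutation p = 0.0065), and the limma adjusted p was 0.0227 and 0.0246. The relation was 0.67 within TyJ and 0.25 within RwwJ, a difference that was not tested, and 0.544 without BXD1 and BXD5. It lost its call without BXD21, BXD36 and BXD40 (r = 0.5, limma adjusted p = 0.0703), and without BXD16, BXD28 or BXD40 alone, where the limma adjusted p reached 0.0595. With the TyJ or RwwJ group as a covariate its r was 0.532 and its limma adjusted p 0.0531. Cnr1 and Faah, which lie on the same chromosome, had r = 0.451 (permutation p = 0.024), and the limma adjusted p of 0.0663 and 0.0709 missed the threshold.

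Adra2c and Npy2r were opposed. Pearson's r was -0.521 (permutation p = 0.008) and rho was -0.565 (permutation p = 0.0037), with r = -0.533 within TyJ and -0.505 within RwwJ. Without BXD6 and BXD2, the highest strains for Npy2r, r was -0.386. The pair passed limma's regression on Adra2c (adjusted p = 0.0361) but not that on Npy2r (adjusted p = 0.232), so it was not called. Sstr2 and Npy2r had r = 0.416 (permutation p = 0.038) and limma adjusted p of 0.455 and 0.331. Adra2a followed none of the other 5 genes over all strains, with r from -0.313 with Faah to 0.00255 with Sstr2. With Cnr1, its r was -0.022 over all strains, 0.282 within TyJ and -0.843 within RwwJ (permutation p = 0.0036 in those 9 strains, unadjusted). The last was the largest within-group r in absolute value over the 15 pairs, and Spearman's rho there was -0.683. Among the RwwJ strains BXD55 had both the highest Adra2a, 891, and the lowest Cnr1, 627. The difference between the groups was not tested.

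**Figure D2:**
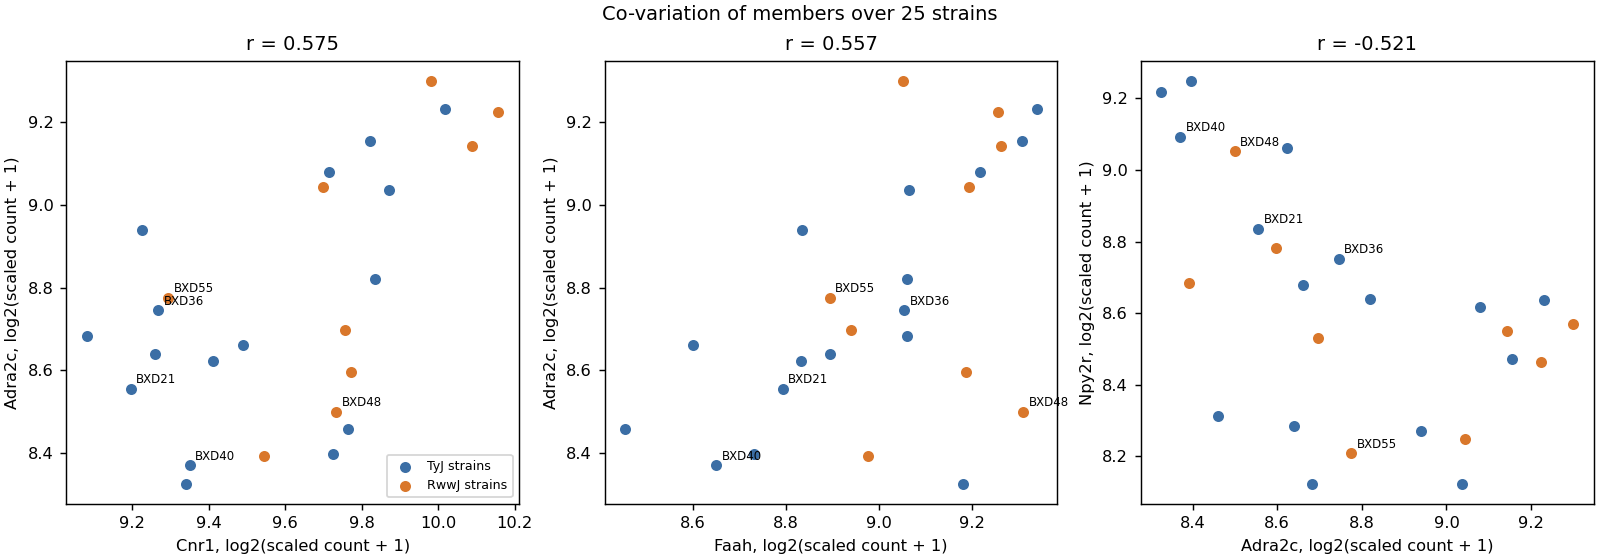
Log2(scaled count + 1) of Adra2c against Cnr1 and Faah, and of Npy2r against Adra2c. Each point is 1 strain, blue for TyJ and orange for RwwJ. Adra2c is higher where Cnr1 (r = 0.575) and Faah (r = 0.557) are higher, and Npy2r is lower where Adra2c is higher (r = -0.521).

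Many other genes moved with the same 3 genes. By limma at an adjusted p of 0.05, 26.4% of the other 16151 genes were called in the regression on Cnr1, 20.1% on Faah and 17.8% on Adra2c, against 1.68% on Adra2a, 0.0% on Sstr2 and 0.0% on Npy2r. Positive and negative calls took 13.3% and 13.1% of all genes on Cnr1, 9.96% and 10.2% on Faah, 8.82% and 9.02% on Adra2c, and 1.57% and 0.118% on Adra2a. Against the totals, 1 of the 5 other members was called on Cnr1, 1 of 5 on Faah and 3 of 5 on Adra2c. The counts on Cnr1 and Faah are close to the share of all genes. At an unadjusted p under 0.05 limma counted 1632 genes on Sstr2 and 2143 on Npy2r. The 272 genes on Adra2a rested on few strains: without BXD55 the count was 2, without BXD21 it was 519, and with the pan-neuronal score as a covariate it was 0.

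The length index moved with the same 3 genes. Its r was 0.704 with Cnr1 (permutation p = 8e-05, adjusted over 12 relations 0.00096), 0.559 with Faah (adjusted permutation p = 0.022) and 0.514 with Adra2c (adjusted permutation p = 0.036). Without the 2 strains of most extreme index r was 0.697, 0.591 and 0.505. It was 0.161 with Adra2a, -0.00611 with Sstr2 and -0.199 with Npy2r. With the index as a covariate, r was 0.349 for Cnr1 and Adra2c, 0.379 for Faah and Adra2c and 0.0984 for Cnr1 and Faah, and 0 of 15 pairs were called. The limma count of genes was then 0 on Cnr1 (1359 at an unadjusted p under 0.05), 433 on Faah and 1749 on Adra2c.

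**Figure D3:**
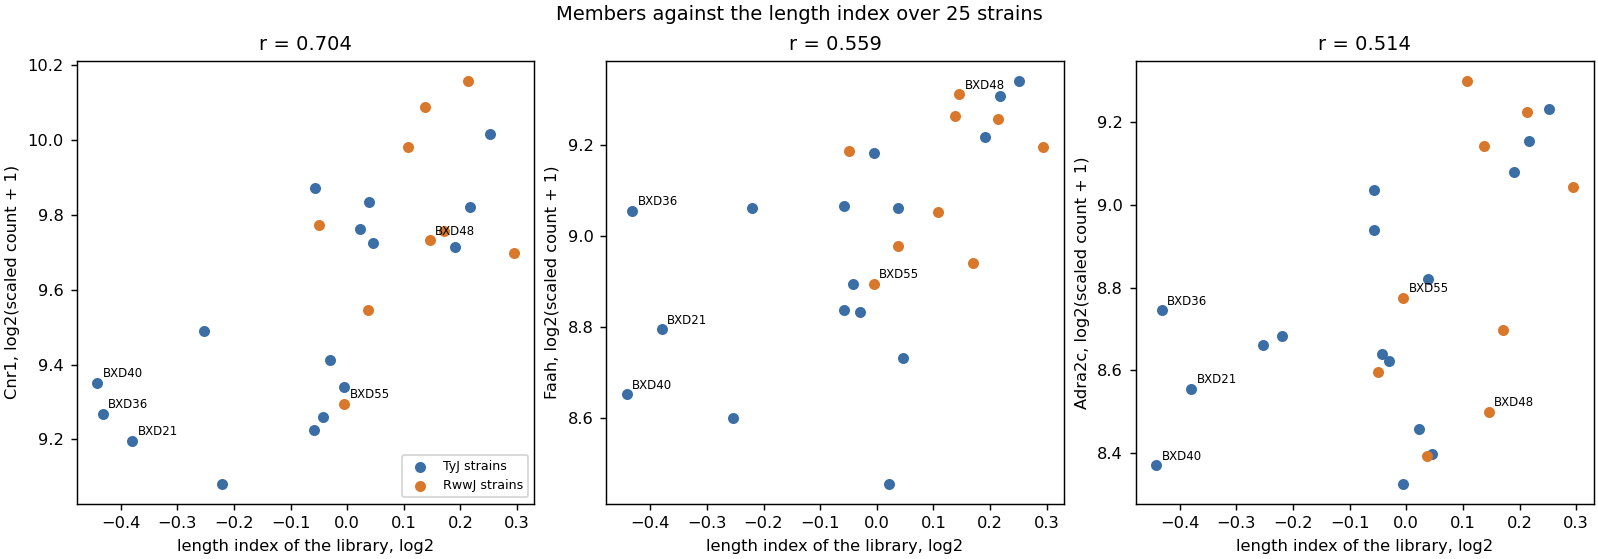
Log2(scaled count + 1) of Cnr1, Faah and Adra2c (y axes) against the length index of the library (x axis, log2). Each point is 1 strain, blue for TyJ and orange for RwwJ, with r of 0.704, 0.559 and 0.514. BXD21, BXD36 and BXD40 stand apart at an index of -0.38 or below.

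The genes most like each member differed from one member to the next. Nearest to Adra2c were Epn3, an endocytic adaptor (r = 0.898), Akain1 (0.895) and Shh, the hedgehog ligand (0.885), and most opposed were the G protein gamma subunit Gng12 (-0.867), Arf4 (-0.85) and Gstp1 (-0.831). With the length index as a covariate the r of the former ran from 0.841 to 0.882 and that of the latter from -0.819 to -0.766. Nearest to Cnr1 were Kbtbd2 (r = 0.852), the tumour necrosis factor receptor family gene Relt (0.845) and Hps5 (0.835). Most opposed was the cathepsin gene Ctso (-0.835), followed by Bri3 (-0.831) and Mrps18c (-0.829). For these Cnr1 genes the r given the length index was smaller, from 0.651 to 0.736 and from -0.66 to -0.632. Nearest to Faah were Sugp2 (0.897), Arpp21 (0.851) and Arhgef4 (0.845), and most opposed were Dek (-0.83), Rnf2 (-0.822) and Sh3bgrl (-0.816). For the Faah genes the r given the length index ran from 0.769 to 0.85 and from -0.767 to -0.718.

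Adra2a was nearest to the potassium channel gene Kcnk2 (r = 0.858), to Cxadr (0.851) and to Nadk2 (0.825). Most opposed were Cend1 (-0.713), Ecd (-0.697) and Lmo1 (-0.694). Nearest to Npy2r were Far2 (0.792), P4htm (0.764) and the serotonin receptor gene Htr1a (0.708), and most opposed were Gas6 (-0.751), Tm6sf1 (-0.736) and Nr2f6 (-0.73). None of the Npy2r genes passed limma, with adjusted p from 0.0652, beside 0.0% of all genes called on Npy2r. Nearest to Sstr2 were the lipid desaturase genes Scd2 (0.731) and Fads2 (0.69) and the protease gene Capn5 (0.71), and most opposed were Klf2 (-0.686), Myo1c (-0.673) and Papolg (-0.672). Their limma adjusted p was 0.305 or more.

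In recombinant inbred strains neighbouring genes are inherited together, so the 5 nearest tested genes on each side were compared with each member. Of 60 such genes, limma called 6 in the regression on their member. Cnr1 had 2 of 10 called, the ubiquitin-conjugating enzyme gene Ube2j1 (r = 0.695, limma adjusted p = 0.007) and Slc35a1 (-0.492). Faah had 3 of 10 called: Mknk1 (0.608), Uqcrh (-0.569) and Atpaf1 (0.524). For both genes these counts sit beside 26.4% and 20.1% of all genes. Adra2c had 1 of 10 called, the peroxisomal oxidase gene Acox3 (r = 0.738, limma adjusted p = 0.000963), beside 17.8% of all genes. Adra2a, Sstr2 and Npy2r had 0 of 10 each, beside 1.68%, 0.0% and 0.0% of all genes. At an unadjusted p under 0.05 limma counted 3 of 10 near Sstr2, beside 10.1% of all genes. These were Slc39a11 (r = 0.585), Kcnj2 (-0.541) and Kcnj16 (0.511). The same count was 1 of 10 near Adra2a (15.5% of all genes) and 0 of 10 near Npy2r (13.3%). Tcf7l2 was the nearest in pattern to Adra2a (r = 0.592). Near Npy2r, r ran only from -0.158 to 0.211. Of the 100 genes of largest absolute r, 11 lay on the chromosome of Cnr1 and 8 on that of Faah, both chromosome 4, which holds 6.23% of genes. The number was 12 for Adra2c on chromosome 5 (5.99%), 13 for Sstr2 on chromosome 11 (8.19%), 6 for Adra2a on chromosome 19 (3.15%) and 5 for Npy2r on chromosome 3 (4.72%).

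Markers of cell types moved with the members along different lines. Scores of 18 marker lists were correlated with the 6 genes in 108 relations, of which 14 had an adjusted permutation p under 0.05. The scores differed between libraries, and the part of cell composition in the levels of the 6 genes was not tested.

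Adra2c was higher where markers of large-diameter neurons, the myelinated mechanoreceptors and proprioceptors, were higher. The score of 9 such genes ran from 12.278 in BXD40 to 12.99 in BXD73 (mean log2), and its r with Adra2c was 0.816 (rho = 0.807, permutation p = 1e-05 for each, the smallest these permutations can give; adjusted 0.0011 for r). The r was 0.713 within TyJ, 0.938 within RwwJ, 0.797 without BXD60 and BXD73, and 0.742 with the length index as a covariate. Of the 9 genes, 6 were called on Adra2c by limma, all positive, beside 8.82% of all genes. They were the neurofilament genes Nefm (r = 0.839), Nefh (0.752) and Nefl (0.664), the transcription factor Runx3 (0.777), Cntnap2 (0.681) and Spp1 (0.489). Pvalb, of proprioceptors, had r = -0.112, and the neurotrophin receptor genes Ntrk2 and Ntrk3 had -0.124 and 0.12. Cnr1 had r = 0.683 with the same score (adjusted permutation p = 0.0052), 0.544 without BXD60 and BXD73, and 0.477 with the length index as a covariate (adjusted permutation p = 0.12).

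Adra2c was lower where markers of satellite glia, macrophages and spinal cord were higher. Its r was -0.721 with the satellite glia score (adjusted permutation p = 0.0027), -0.698 with the macrophage score (adjusted permutation p = 0.0027) and -0.663 with the spinal cord score (adjusted permutation p = 0.0076). Other non-neuronal lists were also negative but did not pass. The largest were adipose (r = -0.424, adjusted permutation p = 0.15) and erythroid genes (-0.416, 0.17). The r was -0.30 with skeletal muscle (0.29), -0.27 with the fibroblast and matrix score (0.35) and -0.23 with lymphocyte and MHC class II genes (0.42). It was -0.21 with endothelium and mural cells (0.44) and -0.096 with myelinating Schwann cells (0.77). All 9 spinal cord genes were called negative on Adra2c by limma, beside 9.02% of all genes. Among them were Mobp (-0.785), Gfap (-0.764) and Mog (-0.727). The spinal cord relation was as large without BXD48, whose score is the highest (r = -0.671), and with the length index as a covariate (-0.679). Adra2c was also lower where the pruriceptor score was higher (r = -0.589, adjusted permutation p = 0.019). That r was -0.503 with the length index as a covariate (adjusted permutation p = 0.099) and -0.539 without BXD21, BXD36 and BXD40 (adjusted permutation p = 0.061).

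Npy2r was higher where markers of pruriceptors, the itch-sensing unmyelinated neurons, were higher. The score of 7 genes ran from 7.644 in BXD16 to 9.318 in BXD11, and its r with Npy2r was 0.754 (permutation p = 3e-05, adjusted 0.0016; rho = 0.786). The r was 0.713 within TyJ, 0.886 within RwwJ, 0.702 without BXD48 and BXD11, and 0.747 with the length index as a covariate. All 7 genes had a positive r with Npy2r, from 0.402 for Osmr through 0.546 for Sst and 0.629 for Nts to 0.683 for the interleukin receptor gene Il31ra. None of the 7 passed limma singly, with an adjusted p of 0.107 or more, beside 0.0% of all genes called on Npy2r. Npy2r also had r = 0.596 with the satellite glia score (adjusted permutation p = 0.017) and 0.537 with the non-peptidergic nociceptor score (adjusted permutation p = 0.044). The latter was 0.397 without BXD42 and BXD55, and 0.52 without BXD48 (adjusted permutation p = 0.065). By ranks it did not pass (rho = 0.477, adjusted permutation p = 0.11). Without BXD21, BXD36 and BXD40 the satellite glia relation had r = 0.54 (adjusted permutation p = 0.061). The non-peptidergic relation then had r = 0.513 (adjusted permutation p = 0.083).

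**Figure D4:**
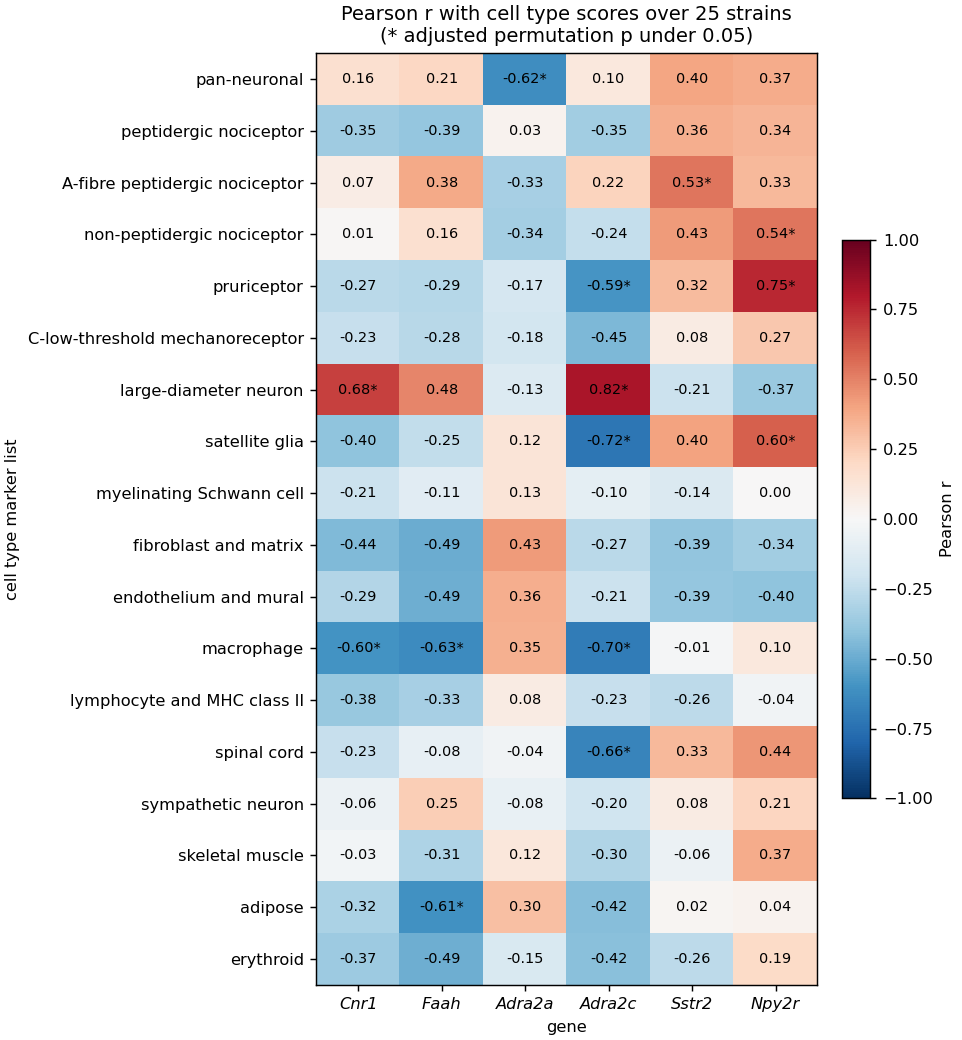
Pearson r over 25 strains between the log2 level of each gene (columns) and the score of each of 18 marker lists (rows), with red for positive and blue for negative values. Asterisks mark the 14 relations with an adjusted permutation p under 0.05, of which Adra2c holds 5, and the strongest are Adra2c with large-diameter neurons (0.82) and Npy2r with pruriceptors (0.75).

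Adra2a was lower where the pan-neuronal score was higher (r = -0.62, adjusted permutation p = 0.011). The r was -0.472 within TyJ, -0.854 within RwwJ and -0.552 without BXD21 and BXD55. BXD55 had the highest Adra2a and the lowest pan-neuronal score, 13.533, and the highest score of fibroblast and matrix genes. On Adra2a limma called 2 of 8 endothelium and mural genes, Pdgfrb (r = 0.688) and Cdh5 (0.647), and 1 of 8 fibroblast and matrix genes, the fibronectin gene Fn1 (0.606), beside 1.68% of all genes. The median r of these lists was 0.199 and 0.259, and their scores did not pass (r = 0.36, adjusted permutation p = 0.21, and r = 0.43, adjusted permutation p = 0.15). Calls on Adra2a rested on few strains: without BXD55 limma called only 2 genes of any kind. By ranks, or with the pan-neuronal score as a covariate, it called 0.

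Faah was lower where macrophage and adipose genes were higher, with r = -0.628 (adjusted permutation p = 0.01) and -0.606 (adjusted permutation p = 0.013). Of 6 adipose genes, limma called 4 negative on Faah, beside 10.2% of all genes. These were Adipoq (-0.729), Cfd (-0.697), Fabp4 (-0.675) and Cidec (-0.652). With the length index as a covariate the macrophage and adipose scores had r = -0.437 (adjusted permutation p = 0.15) and -0.507 (adjusted permutation p = 0.1). Cnr1 had r = -0.601 with the macrophage score (adjusted permutation p = 0.016), and -0.304 with the length index as a covariate. Sstr2 had r = 0.533 with the score of A-fibre peptidergic nociceptors (adjusted permutation p = 0.044), which was 0.648 within TyJ and -0.00732 within RwwJ, a difference that was not tested. Without BXD21, BXD36 and BXD40 it had r = 0.443 (adjusted permutation p = 0.16). By ranks it did not pass (rho = 0.456, adjusted permutation p = 0.13), nor with the length index as a covariate (r = 0.533, adjusted permutation p = 0.071).

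**Figure D5:**
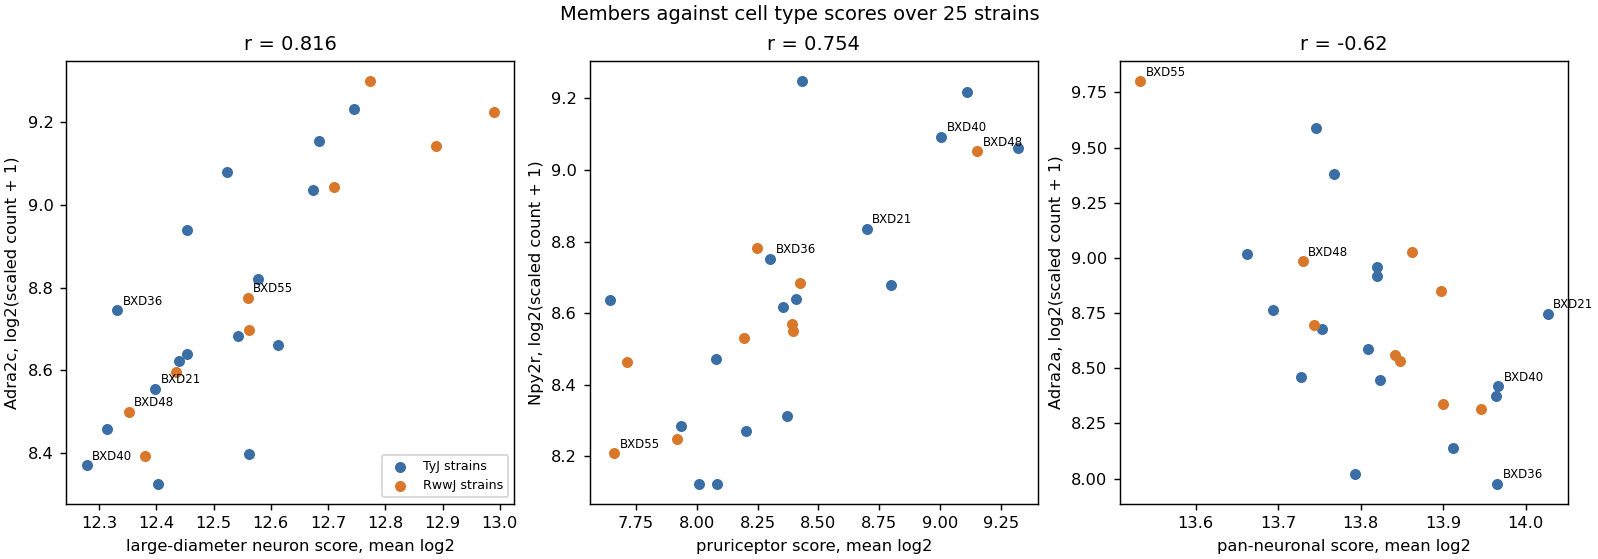
Log2(scaled count + 1) of Adra2c, Npy2r and Adra2a (y axes) against the mean log2 score of large-diameter neuron, pruriceptor and pan-neuronal genes (x axes). Each point is 1 strain, blue for TyJ and orange for RwwJ. The r values are 0.816, 0.754 and -0.62, and BXD55 lies at the top left of the Adra2a panel.

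The other genes of the 4 pathways were read from lists. Of 15 endocannabinoid genes tested, 7 were higher and 8 lower in RwwJ than in TyJ, where 48.8% of all genes were higher. The median difference was -0.013 (log2) beside -0.0047 over all genes, and limma called 0. At an unadjusted p under 0.05 limma counted 5 of the 15, beside 15.1% of all genes. Among them were Dagla, a synthase of the endocannabinoid 2-AG (394 to 768 scaled counts, difference 0.27 ± 0.09, limma adjusted p = 0.29), and Naaa, a lysosomal amide hydrolase (821 to 1682, difference -0.33 ± 0.13, limma adjusted p = 0.299). On Cnr1, limma called 4 of the 14 other genes, close to the 26.4% of all genes: Dagla as positive (r = 0.564) and Naaa (-0.64), the fatty acid carrier Fabp5 (-0.599) and Abhd4 (-0.526) as negative. The median r of the list with Cnr1 was -0.157, beside -0.00237 over all genes. On Faah it called 2 of 14, Dagla (0.627) and Daglb (0.645), both positive, beside 20.1% of all genes. Mgll, the main hydrolase of 2-AG, ran from 1829 to 4264, and Napepld, of anandamide synthesis, from 188 to 354.

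Of 16 adrenergic genes tested, 9 were higher and 7 lower in RwwJ, where 48.8% of all genes were higher. The median difference was 0.049 (log2), and limma called 0. On Cnr1 limma called 3 of 16 as positive and 2 as negative, and on Faah 2 and 1, close to the 26.4% and 20.1% of all genes. The alpha-1 receptor gene Adra1a, at 8 to 44 scaled counts, was called positive on Cnr1 (r = 0.589) and on Faah (0.595). Maob, a monoamine oxidase, was the only 1 of 15 called on Adra2c (-0.726), beside 17.8% of all genes. Maoa was called negative on Cnr1 (-0.684). Adra2a had 0 adrenergic genes called in either direction, beside 1.68% of all genes.

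The somatostatin list held 5 tested genes and the neuropeptide Y list 9, and limma called 0 of either between RwwJ and TyJ, with median differences of 0.044 and 0.081 (log2). The ligand genes varied more than Sstr2 and Npy2r: Sst ran from 77 to 1333 scaled counts and Npy from 2 to 207, with medians of 397 and 14. Sst had r = 0.264 with Sstr2 and 0.546 with Npy2r, with limma adjusted p of 0.677 and 0.226, and was called negative on Adra2c (-0.491). Sstr5 ran from 0 to 49 and Sstr4 from 39 to 209. Of the 9 neuropeptide Y genes, limma called 2 as positive and 2 as negative on Adra2c, 1 and 1 on Cnr1 and 2 and 0 on Faah, beside 17.8%, 26.4% and 20.1% of all genes. The negative ones were Cpe (-0.575) and Npy2r on Adra2c and Pam (-0.506) on Cnr1. The prohormone convertase gene Pcsk1 was called positive on Adra2c (r = 0.774), Cnr1 (0.536) and Faah (0.551), and Pcsk2 positive on Adra2c (0.534) and Faah (0.685) but negative on Adra2a (-0.618). Dpp4, the peptidase that trims neuropeptide Y, was called positive on Adra2a (0.665) and ran from 95 to 1569. As given above, calls on Adra2a rested on few strains.

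Among 39 tested genes of the Gi/o signalling machinery, limma called 10 as positive and 7 as negative on Cnr1, 9 and 3 on Faah, 4 and 7 on Adra2c, and 0 on Adra2a, Sstr2 and Npy2r. Of all genes, 13.3% were positive and 13.1% negative on Cnr1, 9.96% and 10.2% on Faah, and 8.82% and 9.02% on Adra2c. In both directions together, 1.68% were called on Adra2a and 0.0% on Sstr2 and Npy2r. The median r was -0.0273 with Cnr1, 0.0566 with Faah and -0.131 with Adra2c, beside -0.00237, 0.00201 and -0.00517 over all genes. The inhibitory G protein subunit genes went in opposite directions on Cnr1, with Gnai2 (r = -0.767) and Gnai3 (-0.747) negative and Gnaz (0.666) positive. The calcium channel genes Cacna1a (0.681) and Cacna1b (0.596) and the inward rectifier genes Kcnj3 (0.563) and Kcnj9 (0.527) were positive. On Adra2c, Gnaz (0.614) and Cacna1a (0.595) were positive, and Gnai3 (-0.69) was negative. With the length index as a covariate 0 genes of any kind were called on Cnr1.

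Of 24 other Gi/o-coupled receptor genes of sensory neurons, 15 were higher and 9 lower in RwwJ, where 48.8% of all genes were higher. The median difference was 0.20 (log2) beside -0.0047 over all genes, and limma called 0. On Cnr1 limma called 11 as positive and 3 as negative, beside 13.3% and 13.1% of all genes, and 0 with the length index as a covariate. The median r was 0.375, beside -0.00237 over all genes. The positive ones included the metabotropic glutamate receptor gene Grm8 (r = 0.746), the serotonin receptor genes Htr1d (0.683) and Htr1b (0.612), the GABA-B subunit gene Gabbr2 (0.672) and the delta opioid receptor gene Oprd1 (0.584). The negative ones were P2ry12 (-0.594), Lpar1 (-0.52) and P2ry14 (-0.51), which are expressed mainly by non-neuronal cells. Grm8 was also called positive on Faah (0.676) and Adra2c (0.68), and Lpar1 negative on both (-0.594 and -0.764). On Sstr2 and Npy2r 0 of these receptors were called, beside 0.0% of all genes on each.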

How the data were processed

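Dorsal root ganglia of 25 BXD strains were profiled by RNA sequencing, with 1 library per strain. The submitters' processing notes name the builds NCBIM37 and mm9 and the tools HTSeq, TopHat2 (2.0.9) and CASAVA (1.8.0). The unit of the deposited table is a score: whole numbers that, from their low-value steps and their shared upper quartile, are the authors' read counts after upper-quartile scaling and rounding. The scaling tool is not given in the sources used here. They are called scaled counts. Because they are not raw counts, no count model was fitted.

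Scaling factors estimated from the steps ran from 0.6225 to 1.253 and gave an estimated 20020000 to 40150000 reads per library (median 23100000). Of 16220 identifiers, 15697 matched the GENCODE M21 annotation. Its build is later than the table's, and it was used for names, gene order and exon length. Promoter sequences and their GRCm38.p6 coordinates came from RefSeq, where 6 of 6 members matched. Cell type scores were the mean of log2(scaled count + 1) over the listed marker genes.

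Genes with a mean of 10 or more (16152) were tested with limma 3.58.1 in R 4.3.3 on log2(scaled count + 1), with a trended prior, two-sided, adjusted by Benjamini-Hochberg over all genes at 0.05. Groups were TyJ and RwwJ, the endings of the strain names. Co-variation was tested by limma regression of every gene on each member's level. A pair was called when both directions passed. Pearson's r and Spearman's rho had 100000 permutations, two-sided, so 1e-05 is the smallest p they can give. Alternatives were other pseudocounts, filters, scalings, covariates and left-out strains. The length index was added after the data were seen.

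Named genes were the 6 members, the genes of the pathway and cell type lists, the 3 protein-coding genes with a mean of at least 100 of highest and of lowest r with each member, and the flanking gene of largest absolute r. Other called flanking genes were named after their values were seen. The members and lists were chosen with earlier results of these data known. The fits were checked on simulated data.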

Additional observations from a re-analysis of the deposited data

Results flagged for a closer look

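Adra2a in BXD55 stood apart from the other RwwJ strains. Its value was 891 scaled counts, and the next of the 9 RwwJ strains was at 520. Its gap to that strain was 0.646 of the range of the group, and 12 group ends were examined. The threshold used, which this gap exceeded, is passed by chance in about 1 in 20 groups. In the TyJ group BXD5 (769) and BXD2 (666) also had high values.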

How the results depend on the processing

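No paired analysis was possible because each strain had 1 library and the strain names pair no samples across the TyJ and RwwJ groups. Values under other settings were counted apart from those with 1 strain left out in turn. They include the settings without BXD21, BXD36 and BXD40 and, for cell type scores, without BXD48. Of these values, 218 kept their direction and side of the threshold or, for counts, stayed within 1.5 times. Further, 25 counts moved by over 1.5 times, 4 calls were lost, 2 were gained and 1 direction turned. Genes called between RwwJ and TyJ by limma numbered 6 with array weights and 1 with the pan-neuronal score as a covariate, against 0 (2440 at an unadjusted p under 0.05), and 0 to 3 when 1 strain was left out (3 without BXD48). Members called stayed at 0, as did pathway genes. The Adra2c difference was -0.0294 with the length index as a covariate. Sstr2 was -0.0304 without BXD48 and up to 0.131 without BXD60.

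Pairs called, 2 of 15, became 1 without BXD21, BXD36 and BXD40, 1 with the group as a covariate (where Faah with Adra2c lost its call, at r = 0.532 and a limma adjusted p of 0.0531), 0 with the length index, and 1 to 3 when 1 strain was left out. Cnr1 with Faah gained a call at a common total per library (r = 0.494, limma adjusted p = 0.0379) and by ranks (0.514, adjusted p = 0.0428).

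Genes called on Cnr1 (4267) numbered 2471 without BXD21, BXD36 and BXD40, 0 with the length index, 2743 with the group as a covariate, and 3563 to 4542 with 1 strain left out. On Faah (3252) they numbered 433 with the length index, 1513 with the group, and 2077 (without BXD1) to 4027. On Adra2a (272) they numbered 567 at a common total, 67 with array weights, 152 without the 3 strains, 0 with the pan-neuronal score, 730 with the length index, 0 by ranks, and 2 (without BXD55) to 519 (without BXD21). On Adra2c (2882) they numbered 1749 with the length index and 2101 to 3284. On Sstr2 (0) there was 1 with the length index, and 0 to 6 (without BXD36). On Npy2r (0) there were 1 with a mean of at least 50, 4 with array weights, 2 without the 3 strains, 4 with the length index, and 0 to 224 (without BXD2). Relations with cell type scores, 14, became 9 with the length index. One of these was new, Adra2a with macrophages (r = 0.577, adjusted permutation p = 0.037). Without the 3 strains some relations were lost, as given above, and others were gained. Gained for Faah were A-fibre peptidergic nociceptors (r = 0.661), fibroblast and matrix (-0.654) and endothelium and mural cells (-0.653). Gained for Cnr1 was fibroblast and matrix (-0.648). Each had an adjusted permutation p of 0.013. Flanking genes called, 6, became 11 at a common total, 3 with the length index and 4 to 8 with 1 strain left out. The cause of these changes was not tested.

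Counting error, at most 11.1% of a member's variance (Sstr2), sets a limit that covers sampling of reads only.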
